A study of Homo sapiens with 66 samples.

Results

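HIF-1α and HIF-2α binding was compared in wild-type HKC-8 cells, a renal tubular epithelial line. The 4 libraries were chromatin immunoprecipitations with antibodies to HIF-1α (PM14, 2 replicates) or HIF-2α (PM9, 2 replicates), from unmodified (WT) cells kept in 0.5% oxygen for 16 h. The lists were those of an experiment that also held HIF-1β libraries of the WT cells and libraries of 2 knockout lines, HIF1aKO and HIF2aKO, each grown from a single clone and exposed in the same way. Further lists of the series came from unmodified HKC-8 cells after 6 h, 16 h or 48 h in 0.5% oxygen or after 6 h in 3% oxygen, from RCC4 renal carcinoma cells in normoxia, and from HepG2 liver cancer cells in 0.5% oxygen for 16 h. The 4 libraries are part of the 66 samples of the series, of which 50 had a peak list. Peaks that overlapped by at least 1 bp were joined into 7939 sites. A site was called HIF-1-only when both HIF-1α replicates and neither HIF-2α replicate had a peak there (142 sites, 1.79% of all sites), HIF-2-only in the reverse case (2367 sites, 29.8%), and a site of both isoforms when all 4 lists had a peak (875 sites, 11%). The 3384 sites of these 3 classes are described here.

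The hypoxia-inducible factors have an oxygen-regulated α subunit, which is either HIF-1α or HIF-2α. Either pairs with HIF-1β, and both pairs bind the hypoxia response element (HRE), whose core reads ACGTG or GCGTG. In kidney epithelium and its cancers both isoforms can be present in the same cell, with glycolytic enzymes known as classical targets of HIF-1 and growth and matrix genes often described as targets of HIF-2. Because the isoform and the antibody change together in these libraries, their parts in any difference cannot be told apart.

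Sequences of the best-ranked sites are shown first, since both isoforms are known to read the same core. They were taken in order of rank, 2 or 3 in each class, from those of the 10 best-ranked sites that held an HRE core within 100 bp of the centre, and sites whose sequence is not given here, that at LOXL2 among them, were passed over. Each was read from GRCh37 on the plus strand and was centred on the core nearest the site's centre, with HRE cores in capitals on either strand. At NARF and PPP1R3E only 29 bases are given because the wider window ran into an annotated UTR. The HIF-1-only sites were near NARF, which encodes a prelamin A-binding protein, RAPGEF6, an exchange factor for Rap GTPases, and PPP1R3E, a glycogen-targeting subunit of protein phosphatase 1.
NARF (chr17:80416011-80416039): tccgggtccatCACGTGgttactgacagg
RAPGEF6 (chr5:130971290-130971410): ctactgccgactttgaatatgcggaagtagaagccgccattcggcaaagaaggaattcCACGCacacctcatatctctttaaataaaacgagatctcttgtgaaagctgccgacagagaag
PPP1R3E (chr14:23770459-23770487): tccccccgccccCACGCcccCACGCcccc
The sites of both isoforms were near MRPL45, a mitochondrial ribosomal protein, and SCARB1, the receptor for high-density lipoprotein.
MRPL45 (chr17:36442660-36442780): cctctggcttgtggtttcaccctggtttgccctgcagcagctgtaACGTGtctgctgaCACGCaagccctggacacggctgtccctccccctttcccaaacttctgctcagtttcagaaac
SCARB1 (chr12:125322818-125322938): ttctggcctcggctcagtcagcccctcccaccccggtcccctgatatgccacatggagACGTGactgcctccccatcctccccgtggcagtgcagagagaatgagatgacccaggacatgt
The HIF-2-only sites were near EDN2, which encodes endothelin 2, NKD2, a Wnt pathway inhibitor, and SMYD3, a lysine methyltransferase.
EDN2 (chr1:41951875-41951995): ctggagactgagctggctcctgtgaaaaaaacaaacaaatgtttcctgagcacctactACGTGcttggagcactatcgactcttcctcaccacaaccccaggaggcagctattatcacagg
NKD2 (chr5:957922-958042): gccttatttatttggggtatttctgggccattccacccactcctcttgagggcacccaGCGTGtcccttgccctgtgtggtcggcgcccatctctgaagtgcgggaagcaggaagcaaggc
SMYD3 (chr1:246599079-246599199): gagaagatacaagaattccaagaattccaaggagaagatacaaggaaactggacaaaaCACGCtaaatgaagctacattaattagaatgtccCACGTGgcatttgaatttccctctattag
A core in either of its forms was present in each of the 8 windows because the choice of sites required it. None held an AP-1 motif (TGACTCA or TGAGTCA) in the window shown.

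In HepG2 the libraries of the same HIF-α label differed in which sites they held, and the comparison across cell lines and the counts of further HIF-α lists are given with and without them. The numbers of sites followed list length. After peaks off chromosomes 1 to 22, X and Y were left out, the HIF-1α lists held 1910 and 1529 peaks and the HIF-2α lists 4523 and 6736. The shorter HIF-1α list shared 72.9% of its peaks with the other, and the shorter HIF-2α list 85.3%. The lists give no read depth and no signal below the caller's limit, so a site absent from a list was not detectable there at that limit rather than shown to be unbound. When every list was cut to the 1529 peaks with the best scores, 322 sites were HIF-1-only, 592 were of both isoforms and 339 were HIF-2-only. Of the 142 HIF-1-only sites, 130 were again HIF-1-only in the cut lists, and 123 of the 322 had been sites of both isoforms in the full lists. HIF-1-only sites in the cut lists lay within 1 kb of a transcription start site (TSS) in 43.2% of cases, and HIF-2-only sites in 3.24%.

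The border of the classes was next examined, with the peak score used only to rank peaks within a list (0% is the best rank). Another 85 sites had peaks in both HIF-1α replicates and in 1 HIF-2α replicate. Their median rank was 30.3% and 42.8% in the HIF-1α lists, compared with 33.6% and 57.6% for HIF-1-only sites and 29.7% and 34.3% for sites of both isoforms, and 64.3% and 68.4% in the HIF-2α list that called them. Promoter-proximal sites made up 54.1% of those 85. On the other side, 555 sites had peaks in both HIF-2α replicates and in 1 HIF-1α replicate. Their median rank in the HIF-2α lists was 31.9% and 22.9%, better than that of the HIF-2-only sites at 56.0% and 39.8%. Sites of both isoforms ranked at 12.6% and 9.14% in the HIF-2α lists.

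HIF-1-only sites lay at promoters far more often than the others. Of the 142 sites, 75 (52.8%, 95% CI 44.3% to 61.2%) had their centre within 1 kb of a protein-coding TSS, compared with 103 of 875 sites of both isoforms (11.8%, 9.71% to 14.1%) and 90 of 2367 HIF-2-only sites (3.8%, 3.07% to 4.65%). The median distance was 0.669 kb for HIF-1-only sites, 24.2 kb for sites of both isoforms and 35.4 kb for HIF-2-only sites. Over 100 kb from any such TSS were 25% of HIF-2-only sites and 8.45% of HIF-1-only sites. The promoter-proximal HIF-1-only sites were spread over both sides of the start, with 41 upstream and 34 downstream. Intervals here and below are Clopper-Pearson intervals and cover counting error only. Sites are not replicates, so no test was run between classes.

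**Figure D1:**
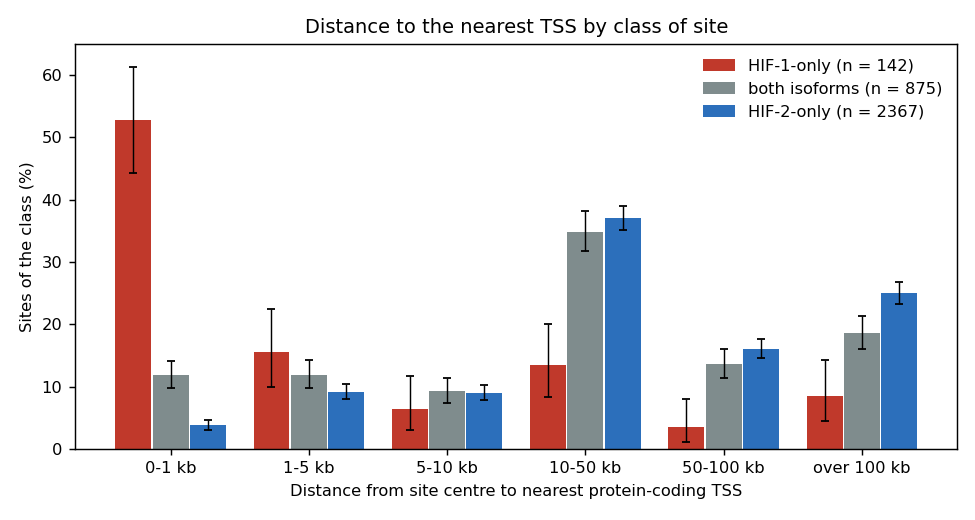
Share of each class of site (y axis, %) by distance from the site's centre to the nearest protein-coding TSS (x axis), with 95% Clopper-Pearson intervals as error bars. HIF-1-only sites peak in the first kilobase at 52.8%, while the other 2 classes are highest between 10 and 50 kb.

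Location within genes differed in the same way. The centre fell in an intron of a protein-coding gene for 35.2% of HIF-1-only, 45.8% of both-isoform and 47.3% of HIF-2-only sites. Coding exons held 9.15% of HIF-1-only sites (95% CI 4.97% to 15.1%) and 0.845% of HIF-2-only sites (0.517% to 1.30%), and UTRs held 12% and 1.69%. Intergenic centres were about as frequent in each class, at 28.9%, 32.7% and 33%, with the remainder in lncRNA genes.

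At the level of libraries, 20.1% and 18.3% of HIF-1α peaks and 6.26% and 5.80% of HIF-2α peaks were within 1 kb of a TSS. The groups did not overlap and their means were 13.2 points apart, with a two-sided p of 0.33 by exact permutation, which is as small as 2 libraries against 2 can reach. Mean GC content of the window around the peak centre was 51.9% and 50.5% for HIF-1α and 48.1% and 49.1% for HIF-2α. HRE cores were in 64.6% and 61.3% of HIF-1α windows and in 49.4% and 43.1% of HIF-2α windows, and AP-1 motifs in 16.3% and 14.8% against 17.5% and 18.5%. With every list cut to 1529 peaks, the difference between isoforms was 10.5 points for the HRE core, in place of 16.7, 1.1 for GC content, in place of 2.56, and -1.01 for AP-1, in place of -2.44 (exact permutation p 0.33, 0.67 and 0.67). None of these 4 comparisons could pass the threshold of 0.05 by design (adjusted p 0.389 over 6 tests in the same exact permutation family).

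The HRE core was more frequent at HIF-1-only sites and at sites of both isoforms, whose intervals overlapped, than at HIF-2-only sites. Within 100 bp of the centre it was present in 72.5% of HIF-1-only sites (95% CI 64.4% to 79.7%), 66.6% of sites of both isoforms (63.4% to 69.7%) and 44.5% of HIF-2-only sites (42.5% to 46.6%). In windows 2 kb away the shares were 24.3%, 21.7% and 20.6%, so each class stood above its own surroundings. At least 2 cores, with the palindrome CACGTG counted on both strands, were found in 40.1%, 26.3% and 13.1% of sites. Among all 19821 annotated promoters, 42.7% held the core in a window of the same length. The difference between the classes was seen away from promoters too, where the core was in 68.7% of 67 HIF-1-only sites (56.2% to 79.4%), 65.8% of 772 sites of both isoforms and 44.4% of 2277 HIF-2-only sites (42.4% to 46.5%). Over the whole merged interval, 96.5%, 97.4% and 82.7% of sites held a core somewhere.

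Both forms of the core were found in each class. ACGTG on either strand was in 53.5% of HIF-1-only, 53.7% of both-isoform and 29.7% of HIF-2-only windows, and GCGTG in 38%, 25.1% and 19.9%. For ACGTG the intervals of HIF-1-only sites (45% to 61.9%) and of sites of both isoforms (50.3% to 57.1%) overlapped, and for GCGTG they did not (30.0% to 46.5% and 22.3% to 28.2%).

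AP-1 motifs, the sites of the FOS and JUN family, were least frequent at HIF-1-only sites. They were in 7.75% of HIF-1-only sites (95% CI 3.93% to 13.4%), 18.7% of sites of both isoforms (16.2% to 21.5%) and 17% of HIF-2-only sites (15.5% to 18.6%), against 4.58%, 3.83% and 3.78% at 2 kb. At sites over 1 kb from a TSS the shares were 13.4% (6.33% to 24%), 20.1% and 17.2%, and the interval of HIF-1-only sites then covered both other values. An AP-1 motif without an HRE core was found in 8.41% of HIF-2-only and 4.23% of HIF-1-only sites. Neither motif was found in 47.1% of HIF-2-only and 23.2% of HIF-1-only sites.

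**Figure D2:**
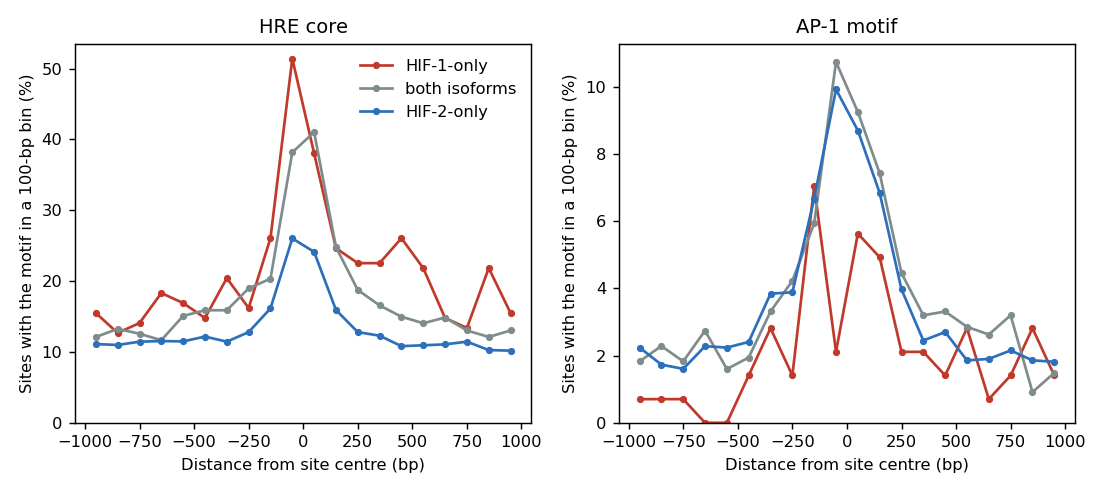
Share of sites (y axis, %) with an HRE core (left) or an AP-1 motif (right) in each 100-bp bin by distance from the site's centre (x axis, bp), with 1 line for each class. The HRE core reaches 51.4% of HIF-1-only sites and 26% of HIF-2-only sites in the bin just left of the centre, and the AP-1 motif is centred on both-isoform and HIF-2-only sites.

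Motifs of other factor families were counted in the same windows, 10 motifs in all, each on both strands. GGAATG, the core bound by TEAD factors of the Hippo pathway, was in 27.4% of HIF-2-only sites (95% CI 25.6% to 29.2%), 19.9% of sites of both isoforms and 14.1% of HIF-1-only sites (8.82% to 20.9%), against 10.9%, 11.1% and 10.9% at 2 kb and 7.45% of all promoters. TGTGGTT (RUNX) was in 6.80% of HIF-2-only sites (5.82% to 7.89%) and 2.11% of HIF-1-only sites (0.438% to 6.05%), and TGTTTAC (FOX) in 5.15% and 2.11%. At sites over 1 kb from a TSS GGAATG was in 27.7% of HIF-2-only (25.9% to 29.6%) and 16.4% of HIF-1-only sites (8.49% to 27.5%), and the intervals overlapped. There TGTGGTT was in 6.90% and 4.48% (0.933% to 12.5%), and TGTTTAC in 5.09% and 1.49% (0.0378% to 8.04%). The GC-rich motifs of promoters went the other way. GGGCGG, the GC box of the SP family, was in 21.8% of HIF-1-only and 4.99% of HIF-2-only sites. Among promoter-proximal HIF-1-only sites its share was 30.7% (20.5% to 42.4%), below the 48.2% of all promoters. CCGGAAG (ETS) was in 18.7% of the 75 promoter-proximal HIF-1-only sites (10.6% to 29.3%), in 1.94% of the 103 promoter-proximal sites of both isoforms (0.236% to 6.84%), and in 10.4% of all promoters. CCAAT was in 17.6%, 20.3% and 21.5% of HIF-1-only, both-isoform and HIF-2-only sites, below the 23.9% to 25.3% found at 2 kb. CACGTG was in 11.3%, 8.57% and 6.55%, and TGACGTCA (CRE) in at most 2.11% of any class.

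Base composition followed promoter proximity but was not the same within it. Median GC content was 56.0% at HIF-1-only, 50.7% at both-isoform and 47.3% at HIF-2-only sites, with 44.3% at 2 kb. Among sites over 1 kb from a TSS it was 50.7%, 49.8% and 47.3%, and among promoter-proximal sites 60.7%, 59.7% and 51.5%. The ratio of observed to expected CpG had a median of 0.602, 0.317 and 0.235. The windows searched for motifs were the same length in each class, and the part of GC content in the motif counts was not tested.

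The classes were then examined with libraries that had not been used to define them. In the 16 HIF-1α and HIF-2α libraries of the hypoxia severity and duration experiment, the isoform-only sites that overlapped a peak were counted. Of those in the 8 HIF-1α libraries, 87.0% ± 7.14 (SD, n = 8) were HIF-1-only, compared with 0.328% ± 0.690 (n = 8) in the HIF-2α libraries. The difference of 86.7 percentage points was larger than the spread between replicates, in the same direction in each of the 4 conditions (exact permutation p 0.00154, two-sided, adjusted p 0.00926, the smallest that 1296 arrangements can give). At 0.5% oxygen for 16 h, 55 of 62 and 32 of 36 isoform-only sites in the HIF-1α libraries were HIF-1-only, and 2 of 104 and 0 of 233 in the HIF-2α libraries. At 3% oxygen for 6 h the counts were 10 of 12 and 5 of 7 for HIF-1α and 0 of 54 and 0 of 90 for HIF-2α. The 95% interval for 0 of 90 reaches 4.02%, that for 0 of 54 6.60% and that for 0 of 233 1.57%. At 0.5% oxygen for 48 h, 0 of 13 in a HIF-2α library has an interval that reaches 24.7%. The classes are of unequal size, with 142 sites called only for HIF-1α and 2367 only for HIF-2α. A list that took sites regardless of class would thus also have a low share. A low share alone therefore says little, while the HIF-1α shares lie far above one set by class size. The lists of that experiment were short, and no HIF-α list in it overlapped more than 38.7% of HIF-1-only or 9.84% of HIF-2-only sites.

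The same measure separated the labels in RCC4 but not in HepG2 cells, and over both lines the difference did not pass the test. RCC4 lacks functional VHL, so HIF-α is stable there in normoxia. In RCC4, 28.3% and 63.9% of isoform-only sites were HIF-1-only in the HIF-1α libraries and 3.74% and 1.48% in the HIF-2α libraries, so that the groups did not overlap although the HIF-1α replicates stood far apart. In HepG2 the libraries labelled HIF-1α gave 6.76% and 40.1% and those labelled HIF-2α 59.4% and 9.40%, so that libraries with the same label differed more than the labels did. Over both lines the means were 16.2 points apart (two-sided p 0.389 by exact permutation, n = 4 and 4, adjusted p 0.389, smallest possible 0.056). Without HepG2 it was 43.5 points (exact permutation p 0.33, the smallest possible). In HepG2, replicate 1 of each label lay nearer replicate 2 of the other label than its own. The labels were used as given, the 16.2 points rest on them, and whether they are right was not tested. The unequal class sizes apply in these lines too, so a low share alone says little about a library.

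**Figure D3:**
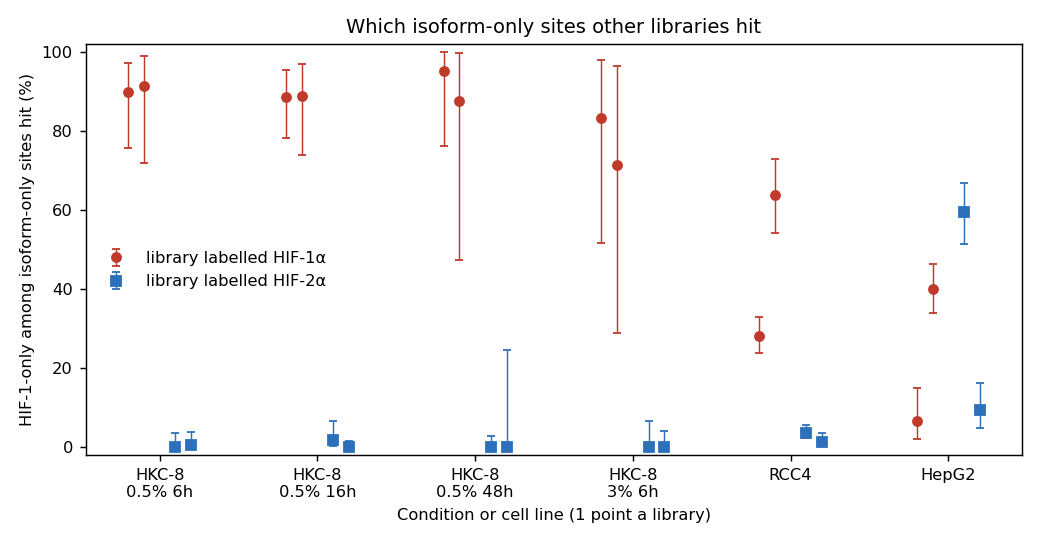
Share of HIF-1-only sites among the isoform-only sites overlapped (y axis, %), with 1 point for each library of 6 conditions or cell lines (x axis) and 95% Clopper-Pearson intervals as bars. HIF-1α libraries of HKC-8 lie between 71.4% and 95.2% and HIF-2α libraries at 1.92% or below, while the 4 HepG2 libraries do not separate by label.

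HIF-1β, the shared partner, was present at nearly all HIF-1-only sites. In WT cells 95.8% and 96.5% of the 142 had a HIF-1β peak in replicates 1 and 2, compared with 99.5% and 99.1% of sites of both isoforms and 78.9% and 90.6% of HIF-2-only sites. With the sites moved by 10 kb, none of the 46 other lists overlapped more than 1.41% of HIF-1-only, 8% of both-isoform or 4.14% of HIF-2-only sites. The HIF-1β peaks of HIF-1-only sites had a median rank of 26.8% and 27.4% in the 2 lists, those of HIF-2-only sites 45.2% and 36.7%, and those of sites of both isoforms 7.83% and 6.52%. HIF-2-only sites with a HIF-1β peak in both WT replicates (1802) held an HRE core in 47.8% of cases (95% CI 45.5% to 50.1%), and those with a peak in neither (158) in 24.7% (18.2% to 32.2%), near the share found 2 kb away. The 158 sites also ranked lower in the HIF-2α lists, with medians of 68.4% and 69.6% against 50.3% and 33.3%. Their median GC content was 42.8% against 48.3%, and the parts of rank and GC content in the HRE share were not tested.

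HIF-1β peaks at each class were then compared between the knockout lines. In the HIF1aKO line 4.23% and 13.4% of HIF-1-only sites had a HIF-1β peak, and in the HIF2aKO line 89.4% and 81.0%. For HIF-2-only sites the values were 47.3% and 65.8% in HIF1aKO and 16.9% and 14.7% in HIF2aKO. Sites of both isoforms mostly had a HIF-1β peak in either line, 83.0% and 89.5% of them in HIF1aKO and 85.8% and 76.1% in HIF2aKO. At HIF-1-only and at HIF-2-only sites the genotypes did not overlap, in opposite directions, and 2 libraries against 2 cannot pass a permutation test. A HIF-1β peak in both HIF2aKO lists and neither HIF1aKO list was found at 94 of 142 HIF-1-only sites (66.2%), and the reverse at 0, with a 95% interval that reaches 2.56%. At HIF-2-only sites these patterns were found at 0.549% and 27.3%. The HIF-1β lists held 3375 and 5781 peaks in HIF1aKO and 2549 and 2082 in HIF2aKO, so that HIF-1-only sites had fewer HIF-1β peaks where the lists were longer, while HIF-2-only sites had more. The shares moved with how the classes were formed. As means over 2 lists, HIF-1-only sites had 8.80% in HIF1aKO and 85.2% in HIF2aKO. With lists of equal length these were 30.7% and 81.4%, and at a score of at least 100 21.7% and 94.6%. For HIF-2-only sites the means were 56.6% and 15.8%, then 86.7% and 38.5%, and 75.4% and 31.3%. The order of the lines was the same in each setting. Each knockout line was 1 clone, and clone and genotype cannot be told apart.

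The remaining isoform was examined in the same way. In HIF2aKO cells HIF-1α peaks overlapped 86.6% and 68.3% of HIF-1-only sites, 65.4% and 46.7% of sites of both isoforms, and 1.73% and 0.296% of HIF-2-only sites. In HIF1aKO cells HIF-2α peaks overlapped 14.1% and 19.7% of HIF-1-only sites, 92.1% and 92.2% of sites of both isoforms, and 64.2% and 71.9% of HIF-2-only sites. At the 75 promoter-proximal HIF-1-only sites the HIF-2α shares were 13.3% and 18.7%, and at the 67 others 14.9% and 20.9%.

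HIF-1-only sites had a HIF-1β peak in other cell lines far more often than HIF-2-only sites. HIF-1β peaks of HepG2 overlapped 71.1% and 69.0% of HIF-1-only sites, 36.2% and 30.4% of sites of both isoforms, and 5.91% and 2.07% of HIF-2-only sites. The shares were highest at promoters, with 94.7% and 92.0% of 75 HIF-1-only sites, 75.7% and 72.8% of 103 sites of both isoforms and 17.8% and 10.0% of 90 HIF-2-only sites. Over 1 kb from a TSS they were 44.8% and 43.3%, 31.0% and 24.7%, and 5.45% and 1.76%, so the order of the classes was the same in both locations. In RCC4 the HIF-1β peaks overlapped 28.2% and 26.8% of HIF-1-only, 28.9% and 27.9% of both-isoform and 1.69% and 1.23% of HIF-2-only sites. The HIF-2α peaks of RCC4 overlapped 14.8% and 2.82% of HIF-1-only, 57.6% and 43.8% of both-isoform and 22.9% and 11.3% of HIF-2-only sites. Within each replicate the isoform-only classes thus stood in the reverse order, both below the sites of both isoforms. Peak rank moves with class, and sites were therefore also compared at like rank in the first WT HIF-1β list. Between the 10th and 25th rank percentile, HepG2 HIF-1β peaks overlapped 79.2% of 48 HIF-1-only sites in each replicate and 9.57% and 2.84% of 282 HIF-2-only sites. Between the 25th and 50th they overlapped 64.8% of 54 in each replicate and 7.15% and 2.81% of 783. Cell line and experiment change together here, in RCC4 with oxygen as well, and cannot be told apart.

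**Figure D4:**
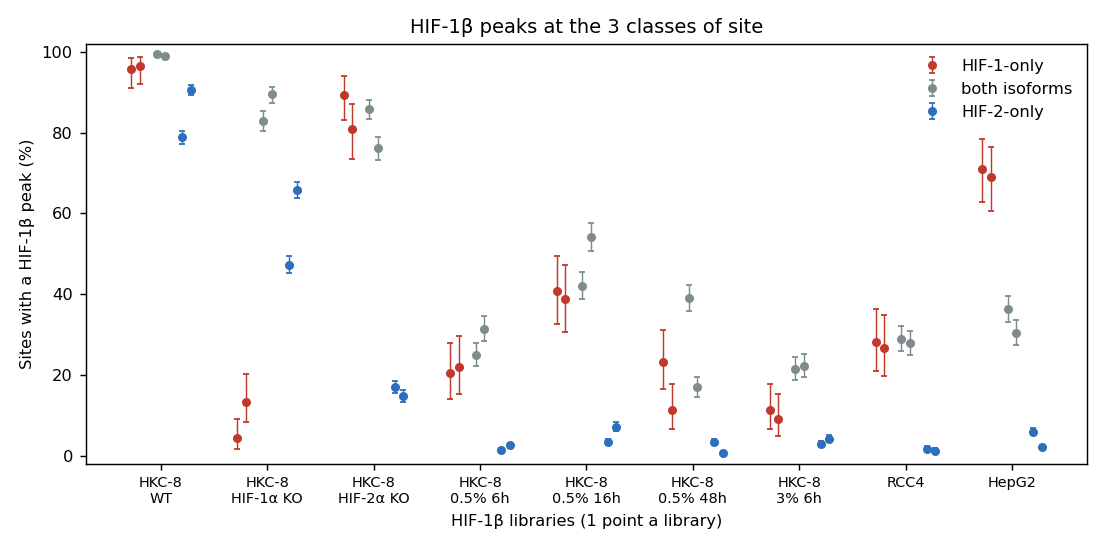
Share of each class of site overlapped by a HIF-1β peak (y axis, %) in WT, HIF1aKO and HIF2aKO HKC-8 cells, in the 4 conditions of the severity and duration experiment and in RCC4 and HepG2 (x axis), with 1 point for each library and 95% Clopper-Pearson intervals as bars. HIF-1-only sites fall to 4.23% and 13.4% in HIF1aKO and stay at 89.4% and 81.0% in HIF2aKO, while HIF-2-only sites are at 16.9% and 14.7% in HIF2aKO and at 5.91% or below in HepG2.

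Single sites illustrate the classes. They are among the 10 of each class with the best mean rank over the libraries that define it, named by the nearest protein-coding TSS, so their ranks in those libraries are a description. The first HIF-1-only site (chr3:11683494-11684954) lay 1.13 kb downstream of a TSS of VGLL4 (ENSG00000144560.16_13), a cofactor of TEAD factors, in an intron. It scored 1230 and 859 in the HIF-1α lists, at ranks of 1.15% and 2.03%. Its HIF-1β peaks ranked at 3.57% and 5.19% in WT and at 1.88% and 4.76% in HIF2aKO, and in HIF1aKO a peak was called in 1 of 2 lists, at 75.4%. Of the lists that had not defined the classes, 13 of 14 for HIF-1α, 3 of 14 for HIF-2α and 17 of 18 for HIF-1β had a peak there, and without HepG2 12 of 12 for HIF-1α and 2 of 12 for HIF-2α did. No HRE core lay within 100 bp of its centre.

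NARF, RAPGEF6 and PPP1R3E followed, each within 1 kb of a TSS. The NARF site ranked at 4.24% and 7.72% in the HIF-1α lists and was present in 13 of 14 further HIF-1α lists, 3 of 14 HIF-2α lists and 18 of 18 HIF-1β lists (without HepG2 again 12 of 12 HIF-1α and 2 of 12 HIF-2α). RAPGEF6 ranked at 5.24% and 8.24%, and PPP1R3E at 5.97% and 9.61%. Neither had a HIF-1β peak in HIF1aKO, while both had one in both HIF2aKO lists. Further down were sites near HK2, which encodes hexokinase 2, the enzyme of the first step of glycolysis, at 9.95% and 19.7%, and near KDM4C, a histone H3 lysine 9 demethylase, at 16.4% and 16.2%. The HK2 site (chr2:75059852-75061760) was centred 0.35 kb upstream of the TSS, held 3 HRE cores near its centre and was present in 11 of 14 further HIF-1α, 3 of 14 HIF-2α and 13 of 18 HIF-1β lists (without HepG2 10 of 12 HIF-1α and 2 of 12 HIF-2α).

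The leading sites of both isoforms were distal, and each of the 10 was over 1 kb from a TSS. At NDRG1, a stress-responsive gene induced by hypoxia in many cells, the site 73.6 kb upstream ranked at 0.262% in both HIF-1α lists and at 1.42% and 1.41% in the HIF-2α lists, and it had a peak in all 14, 14 and 18 further lists. At DDIT4, which encodes an inhibitor of mTORC1, the site 13 kb upstream ranked at 0.890% and 0.523% for HIF-1α and at 1.46% and 1.17% for HIF-2α. ADARB1, an RNA-editing enzyme, and FRMD4A, a scaffold protein of epithelial polarity, both had scores of 3100 in both HIF-2α lists. The ADARB1 site was seen elsewhere in 2 of 14 HIF-1α, 1 of 14 HIF-2α and 6 of 18 HIF-1β lists, the fewest of the 10 (without HepG2 2 of 12 and 1 of 12 HIF-α lists). At BDNF, a neurotrophin gene, HIF-1β ranked at 2.04% and 3.17% in HIF2aKO, and in HIF1aKO a peak was called in 1 of 2 lists, at 60.3%.

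Among HIF-2-only sites the first lay in an intron of ROBO2 (chr3:76546444-76547598), a receptor for SLIT guidance proteins, 187 kb from a TSS. It ranked at 1.59% and 4.14% in the HIF-2α lists, held an AP-1 motif and no HRE core near its centre, and had a HIF-1β peak in 1 of 2 WT lists, at 75.2%. LOXL2, a lysyl oxidase that cross-links collagen, had a site 3.67 kb inside the gene at 4% and 2.91% with HIF-1β at 9.25% and 6.01% in WT. In HIF1aKO that HIF-1β peak ranked at 5.99% and 4.83%, and in HIF2aKO it was called in 1 of 2 lists, at 54.1%. At NKD2 the HIF-1β ranks were 4.59% and 2.66% in WT and 0.533% and 0.415% in HIF1aKO, and 1 of 2 HIF2aKO lists had a peak, at 97.6%. SMYD3 ranked at 1.95% and 9.07% for HIF-2α and had no HIF-1β peak in any of 18 lists. Near its centre lay 3 HRE cores, with the palindrome CACGTG counted on both strands. EDN2, at 7.87% and 2.58%, had HIF-1β peaks in WT (16.0% and 11.1%) and in both knockout lines.

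Genes were linked to a site when theirs was the nearest protein-coding TSS within 100 kb. Of 20136 protein-coding genes, 130 (0.646%) were linked to a HIF-1-only site, 632 (3.14%) to a site of both isoforms, 1379 (6.85%) to a HIF-2-only site and 1915 (9.51%) to any of them. A HIF-1-only site alone was found at 111 genes, and 16 genes had both a HIF-1-only and a HIF-2-only site, including HK2 and VGLL4. At 207 genes a HIF-2-only site accompanied a site of both isoforms, and at 7 a HIF-1-only site did. At least 2 HIF-2-only sites were linked to 301 genes and at least 5 to 5 genes, KAZN, SH3BP4, CRISPLD2, MAP1LC3C and NXN. HIF-2-only sites lay within 100 kb of a site of both isoforms in 18% of cases (95% CI 16.5% to 19.6%) and HIF-1-only sites in 9.15% (4.97% to 15.1%). Sites of 1 gene are not independent, and counts by list are read only beside the shares over all genes.

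Glycolytic genes were linked mostly to sites of both isoforms. Of 22 genes, 12 had such a site (3.14% of all genes), 4 a HIF-2-only site (6.85%) and 1 a HIF-1-only site (0.646%). At PGK1, which encodes phosphoglycerate kinase 1, the site 0.183 kb upstream of the TSS ranked at 3.56% and 3.34% for HIF-1α and at 19.5% and 26% for HIF-2α. At GPI, the isomerase of the second step, the ranks were 0.628% and 1.18% against 4.2% and 40.4%. At GAPDH they were 0.524% and 0.719% against 22.4% and 6.87%. The lists differ in length, and the medians over all sites of both isoforms were 29.7% and 34.3% for HIF-1α and 12.6% and 9.14% for HIF-2α. Ranked among the 875 sites only, the intronic site of SLC2A1, the glucose transporter GLUT1, was at 53.7% and 61.5% for HIF-1α and at 19.4% and 17.8% for HIF-2α, and the site of ENO1, which encodes enolase 1, at 70.5% and 73.8% and at 40.6% and 51.9%. Of 9 glycogen genes, 2 had a both-isoform and 4 a HIF-2-only site. The site at GBE1, the glycogen branching enzyme, was in the coding exon 0.214 kb from the TSS and ranked at 5.18% and 4.51% for HIF-1α and at 35.9% and 28.3% for HIF-2α.

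Histone demethylases had HIF-1-only sites at 2 of 12 genes (KDM4C and KDM5B), sites of both isoforms at 3 (KDM2B, KDM3A and KDM4B) and no HIF-2-only site, beside 0.646%, 3.14% and 6.85% of all genes. KDM3A, an H3 lysine 9 demethylase, held the best HIF-1α rank in the list, at 0.0524% and 0.0654%, with 3.36% and 3.76% for HIF-2α. In the respiratory chain list 2 of 25 genes had a HIF-1-only site, NDUFB8 of complex I and ATP5O of the ATP synthase, centred 0.022 kb and 0.012 kb from a TSS, and none had a site of another class. The share of all genes with a HIF-1-only site was 0.646%. Of 10 oxygen sensing genes, 2 had sites of both isoforms and 1 (EGLN3) a HIF-2-only site, beside 3.14% and 6.85% of all genes. The 2 were EGLN3, a prolyl hydroxylase of HIF-α, and CITED2, a p300 binding protein. The EGLN3 site 12.3 kb inside the gene ranked at 0.105% and 0.131% for HIF-1α and at 5.84% and 4.35% for HIF-2α.

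Adhesion and matrix genes had HIF-2-only sites at 9 of 25 genes (6.85% of all genes), sites of both isoforms at 4 and no HIF-1-only site. ITGB5, an integrin beta subunit, had 3 HIF-2-only sites, the one 0.255 kb from the TSS at 7.89% and 5.70%. ITGB6 also had 3 and FN1, which encodes fibronectin, had 2. The exception in rank was ITGA5, the fibronectin receptor subunit, where a site of both isoforms ranked at 0.733% and 1.05% for HIF-1α and at 2.43% and 1.47% for HIF-2α. Genes of the cytoskeleton and junctions had HIF-2-only sites at 6 of 20 genes (6.85% of all genes), sites of both isoforms at 3 (3.14%) and no HIF-1-only site (0.646%). MYH9, a non-muscle myosin heavy chain, ranked at 14.4% and 13.5% for HIF-1α and at 1.86% and 0.653% for HIF-2α. Among collagen-modifying genes 3 of 11 (PLOD2, LOX and LOXL2) had sites of both isoforms, beside 3.14% of all genes. LOXL2 had 3 such sites and a HIF-2-only site.

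Angiogenic and secreted genes were linked mostly to sites of both isoforms. Of 17 angiogenic and secreted genes 8 had such a site (3.14% of all genes), 4 a HIF-2-only site (6.85%) and 1 (EFNA3) a HIF-1-only site (0.646%). EFNA1, a neighbouring ephrin gene, ranked at 12.7% and 5.23% for HIF-1α and at 0.0442% and 0.319% for HIF-2α. Of 14 growth factor and receptor genes, 4 had a site of both isoforms and 4 a HIF-2-only site (3.14% and 6.85% of all genes). EGFR had 3 sites of both isoforms and 2 HIF-2-only sites, AXL 2 HIF-2-only sites and NRP1 2. At TGFA, a ligand of EGFR, the site ranked at 36.2% and 24.7% for HIF-1α and at 5.51% and 1.84% for HIF-2α. The pH list had 3 of 5 genes with sites of both isoforms, beside 3.14% of all genes. Among them CA9, the tumour-associated carbonic anhydrase, ranked at 2.72% and 3.14% for HIF-1α and at 20.1% and 6.53% for HIF-2α.

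The other lists are given by their counts, beside 3.14% of all genes for sites of both isoforms and 6.85% for HIF-2-only sites. Sites of both isoforms were at 3 of 11 mitophagy, 3 of 11 iron, 3 of 11 AP-1 family, 1 of 13 circadian and 1 of 10 lipid genes, and HIF-2-only sites at 2, 2, 3, 2 and 3 of them. FABP3, a fatty acid binding protein, had the only HIF-1-only site in these 5 lists, at 9.48% and 58.3%. None of 16 liver genes had a site, while PAX2, PAX8 and LHX1, transcription factors of the kidney lineage, did, and a site says only that the locus was bound.

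The 875 sites of both isoforms were finally ranked among themselves in each list, to ask whether the isoforms ordered them alike. As a description across sites, which share libraries, ranks correlated within an isoform at a Spearman coefficient of 0.767 for HIF-1α and 0.868 for HIF-2α, and between isoforms at 0.388 and 0.391. Promoter-proximal sites (103) had a median rank of 35.5% and 36.6% for HIF-1α, against 51.8% and 51.4% for the 772 others, and of 69.4% and 77.7% for HIF-2α, against 47.9% and 46.5%. The difference between isoforms was -41.9 points, with all 4 libraries in the matching direction (exact permutation p 0.33, two-sided, the smallest possible). It was 1 of 5 features compared, and the others differed by at most 17.5 points.

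**Figure D5:**
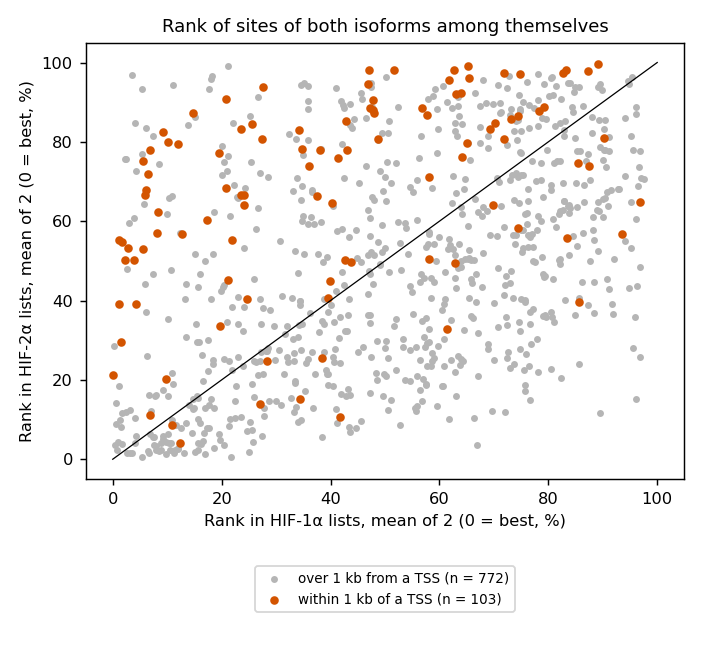
Each of the 875 sites of both isoforms by its mean rank in the 2 HIF-1α lists (x axis, %) and in the 2 HIF-2α lists (y axis, %), where 0 is the best rank, with sites within 1 kb of a TSS in orange and a line of equal rank. Most of the 103 promoter-proximal sites lie above the line, where HIF-1α ranks better.

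Sites of both isoforms were split by how much better they ranked for HIF-1α than for HIF-2α, in terciles of 292, 291 and 292 sites. The split uses the same 4 lists. The promoter, HRE and AP-1 shares of the terciles therefore restate the rank comparison above and add no support to it. Only the peaks of other libraries lie outside the split. Promoter-proximal sites made up 26.7% of the HIF-1-leaning tercile (95% CI 21.7% to 32.2%), 5.84% of the middle one and 2.74% of the HIF-2-leaning one (1.19% to 5.33%). An HRE core was in 72.6%, 69.8% and 57.5%, and an AP-1 motif in 19.5%, 19.2% and 17.5%. HIF-1α peaks of the severity experiment at 0.5% oxygen and 16 h overlapped 40.4% and 29.1% of the HIF-1-leaning and 3.42% and 1.37% of the HIF-2-leaning sites, with 21.0% and 14.1% of the middle tercile between them. HIF-2α peaks overlapped 16.4% and 25.7% of the HIF-1-leaning, 32.6% and 51.2% of the middle and 26.7% and 47.3% of the HIF-2-leaning sites, and the middle tercile stood above the HIF-2-leaning one in each of the 8 HIF-2α libraries of that experiment. HIF-1β peaks in HIF1aKO overlapped 66.8% and 80.5%, 89.0% and 91.8%, and 93.2% and 96.2% of the 3 terciles in the same order, and in HIF2aKO 91.1% and 82.9%, 86.6% and 77.0%, and 79.8% and 68.5%.

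By gene list, HIF-1α ranked 387 of the 875 sites (44.2%) higher than HIF-2α did. It ranked 13 of 15 glycolysis sites higher, with a median difference of 33.3 points against -3.31 over all 875. The 3 histone demethylase sites were all ranked higher by HIF-1α, with a median of 21.1, and 6 of 8 angiogenic and secreted sites, with 8.63. Of the growth factor and receptor sites 2 of 6 were, with a median of -17.7, and of the adhesion and matrix sites 2 of 4, with -2.66, near that of all 875. Medians of the other lists, with few sites each, were 30.7 for AP-1 family, 28.3 for oxygen sensing and 22.9 for glycogen. They were 13.5 for iron, 6.74 for mitophagy, 6.37 for pH and 0.429 for cytoskeleton and junctions. Collagen-modifying genes had -4.63, circadian -8.09, lipid -10.8 and kidney lineage -11.2.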

How the data were processed

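HKC-8 cells were assayed by ChIP-seq, and per the labels and the study's methods the authors trimmed reads with Trim Galore 0.3.3, aligned them to GRCh37 with BWA 0.7.5a-r405, filtered with SAMtools 0.1.19, bedtools 2.17.0 and Picard 1.106, and called peaks with T-PIC and MACS (versions not given in the sources used here), with a filter on the count under a peak. The deposited lists, 1 per library, carry MACS peak names and are read as MACS calls. Whether that filter was applied to them is not stated. The deposited score is read as −10 times the log10 of the peak's p-value and ranks peaks within a list. Depth is unknown. From these lists, 36 peaks off the main chromosomes were left out. Sites were formed by an overlap of 1 bp. TSS distance used 89204 protein-coding transcripts of GENCODE 44, and motifs were searched in windows of 201 bp. Libraries were compared by exact permutation, with labels permuted within condition, adjusted over 6 tests (Benjamini-Hochberg). Inputs are labelled by genotype and number, but the labels do not say whether same-numbered replicates share a preparation, and they were not treated as pairs. All replicates are separate samples in the labels. A p-value is the share of label arrangements with a difference at least as large as that observed, and its smallest value is set by the number of arrangements. Alternatives were overlap of 50%, lists of equal length, windows of 200 bp, scores of 100 or more, a TSS within 5 kb and leaving out replicates. Named sites are the 10 best ranked in each class and the members of 18 gene lists of 251 symbols (246 matched directly, 5 by synonym). Some list members and 1 sequence are not reported here. Members and lists were chosen with earlier results of these data known. The scripts were tested on simulated data. Python 3.11.15, numpy 2.4.6, pandas 2.3.3, scipy 1.17.1 and pysam 0.24.0 were used.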

Additional observations from a re-analysis of the deposited data

How the results depend on the processing

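Of 84 alternatives, 72 kept the direction and side of the threshold or stayed within the limits set for a count. With the replicate block, which permutes labels within replicate number, the difference in the severity and duration libraries was again 86.7 (exact permutation p 0.00781, adjusted p 0.0469), and p was 0.50 for each of the other 5 comparisons. Same-numbered replicates were not treated as pairs (correlation of deviations 0.0642 over 2 pairs), and the block changed no call. Without replicate 1 or 2 that difference ranged from 84.6 to 88.8, with an exact permutation p of 0.125 that is the smallest possible there, and without single libraries or under the other settings from 85.2 to 96.1. In RCC4 and HepG2 the difference of 16.2 reversed to -14.0 without replicate 2, was 46.5 without replicate 1, and was 3.75 without HepG2 HIF-2α replicate 2. Leaving out single libraries was chosen after seeing the data. The class counts moved most. HIF-1-only, both-isoform and HIF-2-only sites numbered 83, 470 and 1413 at a score of at least 100, and lists of equal length gave 322 HIF-1-only sites and 339 HIF-2-only sites. Without replicate 1 or 2 HIF-1-only sites ranged from 346 to 574, sites of both isoforms from 1166 to 1326 and HIF-2-only sites from 3189 to 5558, since 1 list per isoform then sufficed. The lists hold no read counts, so the part of depth in how many sites are called was not tested, and an absent peak is not evidence of no binding.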

Other observations

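HIF-2-only sites that recurred in other HIF-2α lists were counted after their values were seen. Of the 2367, 20 were present in at least 10 of the 14 HIF-2α lists that had not defined the class, and 12 of these 20 had no HRE core within 100 bp of the centre, compared with 1313 of all 2367 (55.5%). Without HepG2, 18 sites were present in at least 10 of 12 lists, of which 12 had no core. A HIF-1β peak was found in at most 5 of 18 lists at 12 of the 20, of which 10 had no HRE core. Among all 2367 HIF-2-only sites this held for 2074, of which 1182 had no core, so few HIF-1β peaks were not particular to the recurrent sites. SMYD3 was in 11 of 14 HIF-2α and 0 of 18 HIF-1β lists, ROBO2 in 12 and 1, and SERTAD4 in 12 and 3. At the other end, OSMR, the oncostatin M receptor, was in 13 HIF-2α (11 without HepG2) and 13 HIF-1β lists, NKD2 in 10 and 15, and FRMD8 in 11 (9 without HepG2) and 16. No HIF-1β peak in either WT replicate was found at 158 HIF-2-only sites, of which 129 were in none of the 18 HIF-1β lists. The antibody to HIF-2α was the same in these lists, and its part in them was not tested.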
